A study of Mus musculus with 7 samples.

Results

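The 10 genes described here are Sox1, Sox3, Sox14 and Sox21 of the SoxB group, Sox11 of the SoxC group, Sox8 and Sox9 of the SoxE group, and Sox7, Sox17 and Sox18 of the SoxF group. They were listed by name from among 21631 protein-coding genes of chromosomes 1 to 19 and X, and a called peak of trimethylated lysine 27 on histone H3 (H3K27me3) was assigned to a gene when it shared at least 1 bp with the gene body extended by 10 kb on each side. Chromatin immunoprecipitation and sequencing for H3K27me3 was carried out on sorted basal epidermal progenitors from back skin of newborn mice (postnatal day 0), with 400000 cells per immunoprecipitation. One genotype is given as Control, and the other as Ring1a/b 2KO, cells without Ring1a and Ring1b. The labels give no alleles or Cre driver and do not describe the control further. Each genotype had 2 labelled immunoprecipitation libraries and 1 deposited list of peaks, 3631 peaks for control and 2340 for 2KO cells. The median peak width was 4764 bp in the control list and 5507 bp in the 2KO list. A single list per genotype carries no spread between replicates and permits no test, so every difference below is a description of these lists. The titles of the 2KO libraries name H3K27me1, while their antibody label and the list name H3K27me3. The 3 libraries of control input, Eed cKO input and Eed cKO H3K27me3 were not analysed here.

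H3K27me3 is written by Polycomb repressive complex 2 and marks silenced developmental genes. Ring1a and Ring1b are the ubiquitin ligases of Polycomb repressive complex 1, which places ubiquitin on histone H2A, a modification that can in turn bind complex 2. Sox proteins are transcription factors that bind DNA through an HMG box related to that of the testis-determining factor Sry, and they are sorted into groups by likeness of protein sequence. SoxB factors act mainly in the nervous system, SoxC factors in neuronal and other progenitors, SoxE factors in neural crest derivatives, glia, cartilage and gonad, and SoxF factors in blood vessels, lymphatics and endoderm. Sox9 is also known as a factor of hair follicle stem cells.

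All 10 genes had a control peak and 5 of them also had a 2KO peak. Sox1, Sox3, Sox14, Sox17 and Sox18 were in the second set, whereas Sox7, Sox8, Sox9, Sox11 and Sox21 had a control peak only. No gene had a 2KO peak only. Of all protein-coding genes, 14.9% had a control peak, 11.2% a 2KO peak, 8.90% both, 5.98% a control peak only and 2.27% a 2KO peak only. Among genes with a control peak 59.8% had a 2KO peak, so the count of 5 of 10 is near this background. For control peaks, 10 of 10 genes stand beside a background of 14.9%, but the genes were listed with earlier results of these data known. The length of control peaks at these genes had a median of 13.6 kb, compared with 5.73 kb over the 3219 protein-coding genes with a control peak. The share of control bases under 2KO peaks had a median of 15.1% over the 10 genes and 54.5% over the 3219 genes. Within the 10 genes it was split, with 4 genes at 94.9% or more, Sox14 at 30.3% and 5 genes at 0%. Over the 3219 genes, 40.7% had no control base under a 2KO peak and 32.6% had at least 90% of them, so extremes of this kind were common.

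**Figure D1:**
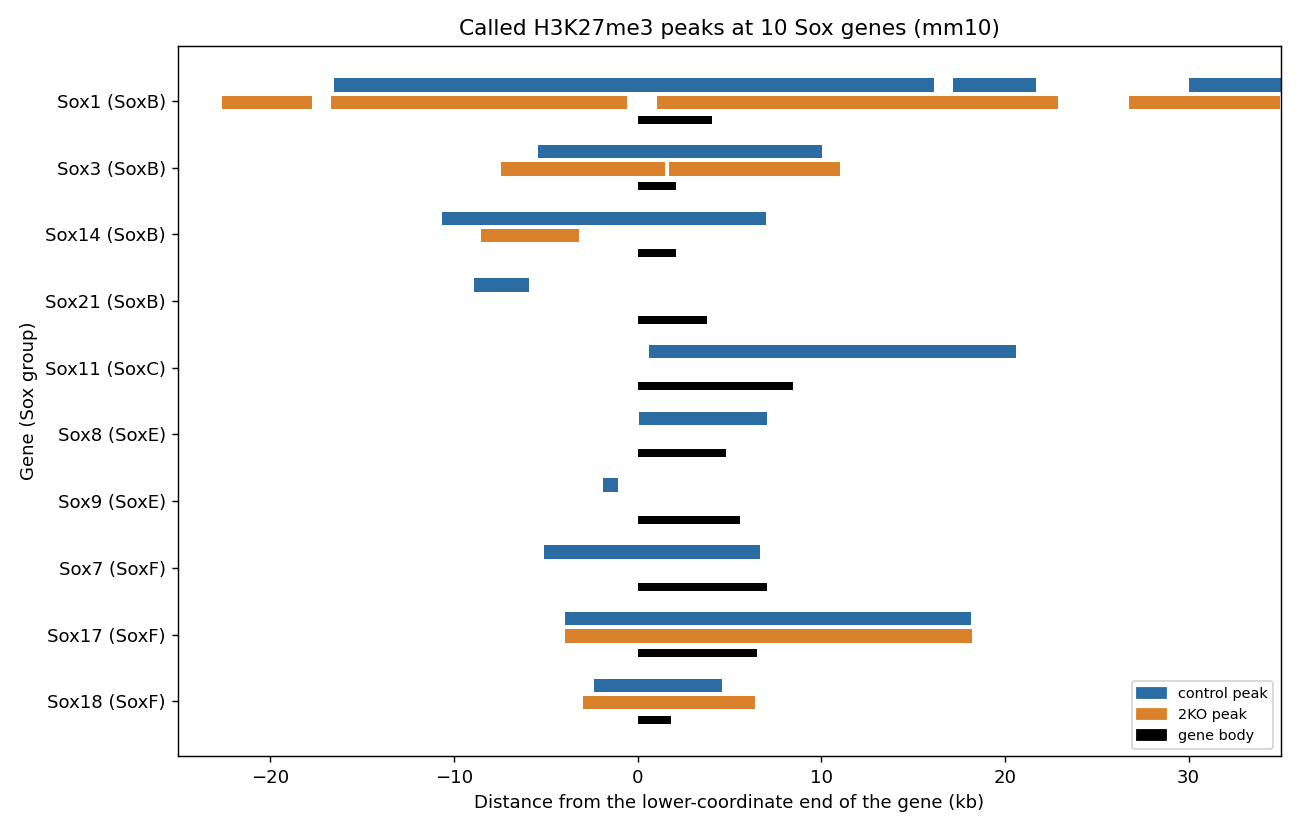
Called peaks at the 10 Sox genes, plotted as distance in kb from the lower-coordinate end of each gene. Blue bars are control peaks, orange bars 2KO peaks and black bars gene bodies. Peaks of both lists cover Sox17 and Sox18 whole, the 2KO list has a break at the lower-coordinate end of Sox1 and inside Sox3, and no orange bar appears at Sox21, Sox11, Sox8, Sox9 or Sox7.

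The promoters of 5 of the 10 genes (Sox1, Sox14, Sox21, Sox11 and Sox8) are held by the RefSeq promoter table, build GRCm38.p6, which is the same assembly as mm10. Sox3, Sox7, Sox9, Sox17 and Sox18 have no entry. The 250 bases before each transcription start are printed 5′ to 3′ on the strand of the gene, because the start sites of Sox1, Sox14, Sox11 and Sox8 lay under control peaks and under no 2KO peak, while that of Sox21 lay under neither. Capitals mark the letters CG, the dinucleotide that is dense in CpG islands, the common sites of Polycomb binding in mammals. Sox1 is read on the plus strand at chr8:12395269-12395518, Sox14 on the minus strand at chr9:99876171-99876420, Sox11 on the minus strand at chr12:27342719-27342968, Sox8 on the minus strand at chr17:25570687-25570936 and Sox21 on the minus strand at chr14:118237031-118237280.
Sox1: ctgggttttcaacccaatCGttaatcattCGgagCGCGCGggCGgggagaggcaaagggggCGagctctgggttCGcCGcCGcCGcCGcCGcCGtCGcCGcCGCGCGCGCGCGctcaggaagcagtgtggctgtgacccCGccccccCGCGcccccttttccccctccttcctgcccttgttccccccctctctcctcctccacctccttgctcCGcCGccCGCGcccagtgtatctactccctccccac
Sox14: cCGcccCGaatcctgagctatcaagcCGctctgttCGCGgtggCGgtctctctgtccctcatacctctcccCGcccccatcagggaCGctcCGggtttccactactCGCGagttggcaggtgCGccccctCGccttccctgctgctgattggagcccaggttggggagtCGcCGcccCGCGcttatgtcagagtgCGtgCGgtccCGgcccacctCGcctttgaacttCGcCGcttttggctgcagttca
Sox11: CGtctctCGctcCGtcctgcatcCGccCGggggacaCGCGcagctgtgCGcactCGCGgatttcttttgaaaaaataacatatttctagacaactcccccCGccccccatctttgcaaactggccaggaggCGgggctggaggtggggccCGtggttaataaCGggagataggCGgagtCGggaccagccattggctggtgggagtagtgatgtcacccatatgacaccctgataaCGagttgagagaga
Sox8: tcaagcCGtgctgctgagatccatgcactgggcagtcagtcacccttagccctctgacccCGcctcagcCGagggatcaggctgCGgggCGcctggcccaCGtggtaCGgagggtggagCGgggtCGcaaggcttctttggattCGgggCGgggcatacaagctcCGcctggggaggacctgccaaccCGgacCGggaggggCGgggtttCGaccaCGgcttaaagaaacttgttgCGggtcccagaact
Sox21: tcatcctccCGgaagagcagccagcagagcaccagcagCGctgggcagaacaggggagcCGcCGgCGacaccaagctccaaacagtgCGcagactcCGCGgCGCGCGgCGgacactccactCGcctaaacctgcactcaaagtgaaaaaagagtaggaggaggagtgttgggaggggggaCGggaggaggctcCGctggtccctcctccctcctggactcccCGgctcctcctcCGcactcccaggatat

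In the full promoter window of 300 bases, which also takes in 50 bases after the start, the letters CG occurred 37 times at Sox1, 26 at Sox14, 22 at Sox21, 21 at Sox11 and 21 at Sox8. CG reads the same on both strands and its copies cannot overlap. All 5 windows held 20 or more copies, as did 36.3% of the 21045 promoter windows of protein-coding genes, whose median was 13. At least 1 CG stood in 95.5% of all windows. The GC content was 70.7% at Sox1, 66.0% at Sox14, 65.7% at Sox21, 58.7% at Sox11 and 66.3% at Sox8, compared with a median of 56.7% over all windows. Start sites under a control peak only (767 promoters) had a median of 21 CG per window, those under peaks of both lists (810) had 16, those under a 2KO peak only (107) had 10, and those under neither (19361) had 13. In the control-only class, to which Sox1, Sox14, Sox11 and Sox8 belong, 55.9% of windows held 20 or more copies. The core of the Sox binding sequence, ACAAT, was searched on both strands (as ACAAT or ATTGT, which can overlap each other and were each counted). It was found in none of the 5 windows and in 27.1% of all windows, which says only that these letters are not in these windows.

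**Figure D2:**
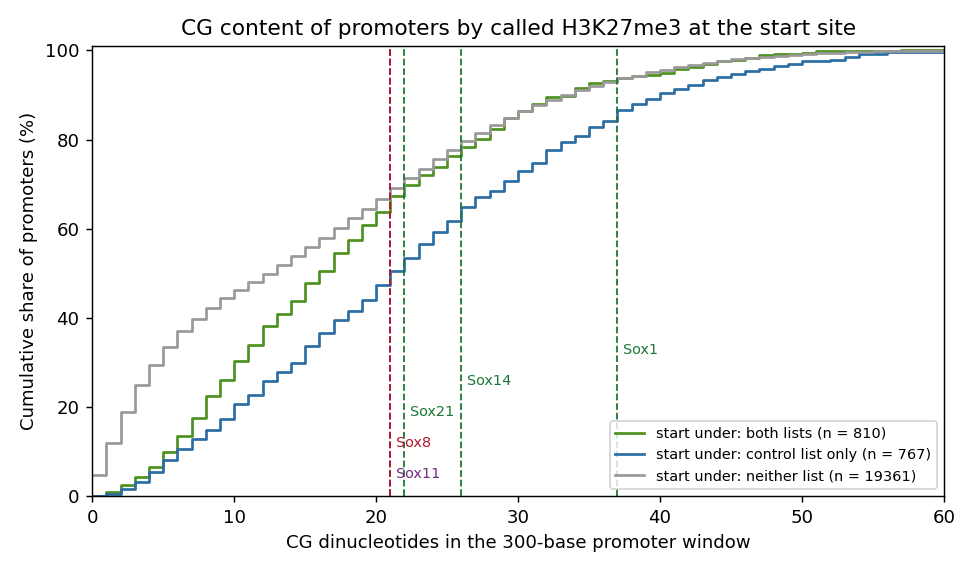
Cumulative share of promoters in percent (vertical axis) against the number of CG dinucleotides per 300-base window (horizontal axis), for start sites under peaks of both lists, of the control list only and of neither list. Dashed lines mark Sox11 and Sox8 (both 21), Sox21 (22), Sox14 (26) and Sox1 (37), and the curve of the control-only class lies to the right of the other curves over most of the range.

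Of 1577 start sites under a control peak, 810 lay under a 2KO peak (51.4%). None of the 4 Sox members with a mapped start site under a control peak was among them, and neither were the starts of Sox2 and Sox13 outside the list. This count leaves out every gene without a promoter entry and so does not describe the whole set. The windows of all 4 members were covered over their whole 300 bp by control peaks and over 0 bp by 2KO peaks. For members with no mapped start site, both ends of the gene were read instead. Both ends of Sox3, Sox17 and Sox18 lay under peaks of both lists, so their starts did too, whichever end holds the start. Outside the list of members, Sox10 has no promoter entry, and its upper-coordinate end lay under peaks of both lists. Sox7 had its lower-coordinate end under the control peak and neither end under a 2KO peak, and Sox9 had neither end under a peak of either list. Over all 10 genes, both ends of Sox1, Sox3, Sox14, Sox17 and Sox18 lay under control peaks, and both ends of 3 of these 5 under 2KO peaks, compared with 177 of 349 over all protein-coding genes (50.7%).

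In the SoxB group, which is known for neural progenitors and neurons, called length was carried over at Sox1 and Sox3, in part at Sox14 and not at Sox21. Sox1, a factor of neural progenitors (chromosome 8, 12395519 to 12399555), lay inside a control peak of 32.6 kb (12379008 to 12411635), the 54th widest of the control list. The 2KO list had a peak of 16.1 kb (12378805 to 12394916) and another of 21.8 kb (12396597 to 12418398) at the same place. These peaks covered 94.9% of the control domain, and their outer edge on the lower-coordinate side lay 0.203 kb from that of the control peak. Between them was a break of 1680 bp (12394917 to 12396596), from 0.602 kb before the gene's start to 1.08 kb inside it. The promoter printed above lay wholly in this break. Such a break, with 2KO peaks on both sides of the start and inside 1 control peak, held 46 of 1577 control-covered start sites (2.92%). The median of the 116 breaks in the 93 control peaks that met several 2KO peaks was 1684 bp, close to the width of the break at Sox1.

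Around Sox1 the 2KO list held more called length than the control list, and 2KO peaks were also wider at the median over the whole lists. Between 10 and 100 kb from the gene the control peaks covered 34.7 kb and the 2KO peaks 55.8 kb. Each of the 4 other control peaks within 100 kb, 3.69 to 9.11 kb wide, lay wholly under 2KO peaks. The 2KO peak over Sox1 ran past the end of its control peak and took in the next control peak (12412670 to 12417189). Peaks of 2.71 kb (12312638 to 12315345) and 4.91 kb (12372893 to 12377801) were in the 2KO list alone. The lncRNA gene Sox1ot (12385771 to 12436732), within which Sox1 lies, had 25.9 kb under the control peak and 30.9 kb under the 2KO peaks counted for Sox1.

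Sox3, the X-linked gene of the same subgroup with a role in the pituitary and neural tube (60891366 to 60893430), lay inside a control peak of 15.5 kb (60885920 to 60901375). The 2KO list held peaks of 8.91 kb (60883933 to 60892840) and 9.33 kb (60893069 to 60902393), parted by 228 bp inside the gene. They covered 98.5% of the control peak and reached 1.99 kb beyond it on one side and 1.02 kb on the other. The lncRNA gene Gm38438 (60893653 to 60898067) next to Sox3 lay wholly under peaks of both lists. No other peak of either list lay within 100 kb of Sox3.

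Sox14, a gene of interneurons (chromosome 9, 99874106 to 99876170), lay inside a control peak of 17.7 kb (99863452 to 99881101). Its 2KO peak measured 5.34 kb (99865564 to 99870907), lay wholly inside the control domain and ended 3.20 kb short of the gene, on the side of the gene's 3′ end. The control peak was thus covered to 30.3%, with 100% of the gene body under control and 0% under 2KO peaks. Counted on the gene body, Sox14 therefore had a control peak only.

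Sox21, known from chick to counteract Sox1 and Sox3 in neurogenesis (chromosome 14, 118233233 to 118237030), had no peak of either list on its body. Its control peak of 3.00 kb (118224321 to 118227315) lay 5.92 kb away, past the 3′ end, and overlapped the lncRNA gene Gm32045 by 2.04 kb. The nearest 2KO peak was 3138 kb away. Within 1 Mb of Sox21 the control list held 6 peaks and the 2KO list 0.

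Sox11, the SoxC gene of the set and a factor of newly formed neurons (chromosome 12, 27334268 to 27342718), had the widest control peak without any 2KO base among the 10 genes. The peak measured 19.96 kb (27334889 to 27354851). It covered 92.7% of the gene and ran 12.1 kb past the start on the upstream side, over 9.70 kb of the lncRNA gene Gm30855. A further 4 control peaks lay within 100 kb of the gene on the same side, the widest of 18.5 kb (27427808 to 27446258), and none of them met a 2KO peak. Within 1 Mb of Sox11 the control list held 6 peaks of 53.1 kb in all and the 2KO list 0. The nearest 2KO peak (29525351 to 29539456) was 2183 kb away.

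Both SoxE genes among the 10 had a control peak and no 2KO peak, whereas Sox10, the third SoxE gene, had peaks of both lists. Sox8, which acts in glia, testis and muscle (chromosome 17, 25565893 to 25570686), lay under a control peak of 6.998 kb (25565957 to 25572954) that covered 98.7% of the gene and 2.14 kb of the lncRNA gene Cerox1 beside it. A control peak of 2.78 kb farther off, 25495123 to 25497901, was wholly covered by a 2KO peak of 4.21 kb, the nearest to Sox8 at 67.0 kb. Sox9, the factor of cartilage, testis and hair follicle stem cells (chromosome 11, 112782210 to 112787757), had no peak on its body. Its control peak measured 0.808 kb (112780348 to 112781155), ranked 3609 of 3631 by width and lay 1.05 kb outside the gene. The nearest 2KO peak was 1771 kb from Sox9, and within 1 Mb the control list held 2 peaks and the 2KO list 0.

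The absence of 2KO peaks around Sox21, Sox11 and Sox9 reached past 1 Mb, whereas Sox8 and Sox7 had 9 and 7 2KO peaks within that distance. A distance of over 1 Mb to the nearest 2KO peak was found for 267 of the 1294 genes with a control peak only (20.6%) and for 22.2% of all protein-coding genes, so it was common in this list.

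The SoxF genes, which are known for endothelium, differed from one another. Sox17, a factor of arterial endothelium and definitive endoderm (chromosome 1, 4490928 to 4497426), had a control peak of 22.1 kb (4486976 to 4509095) and a 2KO peak of 22.2 kb (4486946 to 4509129). The edges of these peaks differed by 30 bp on one side and 34 bp on the other. Of 1550 control peaks paired with exactly 1 2KO peak, 14 (0.903%), Sox17 included, had edges this close, and the median of the summed edge distances was 1874.5 bp. Sox18, a factor of lymphatic vessel formation (chromosome 2, 181669837 to 181671640), had a control peak of 6.93 kb (181667479 to 181674412) lying wholly within a 2KO peak of 9.35 kb (181666865 to 181676212). The 2KO peak was wider by 0.614 kb on one side and 1.80 kb on the other, and 25.8% of it lay outside control peaks. Sox7, the third gene of the group (chromosome 14, 63943706 to 63950732), lay under a control peak of 11.8 kb (63938596 to 63950364) that covered 94.8% of the gene. No 2KO peak lay within 100 kb of Sox7, and the nearest was 338 kb away. Within 1 Mb, 5 control and 7 2KO peaks were called.

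**Figure D3:**
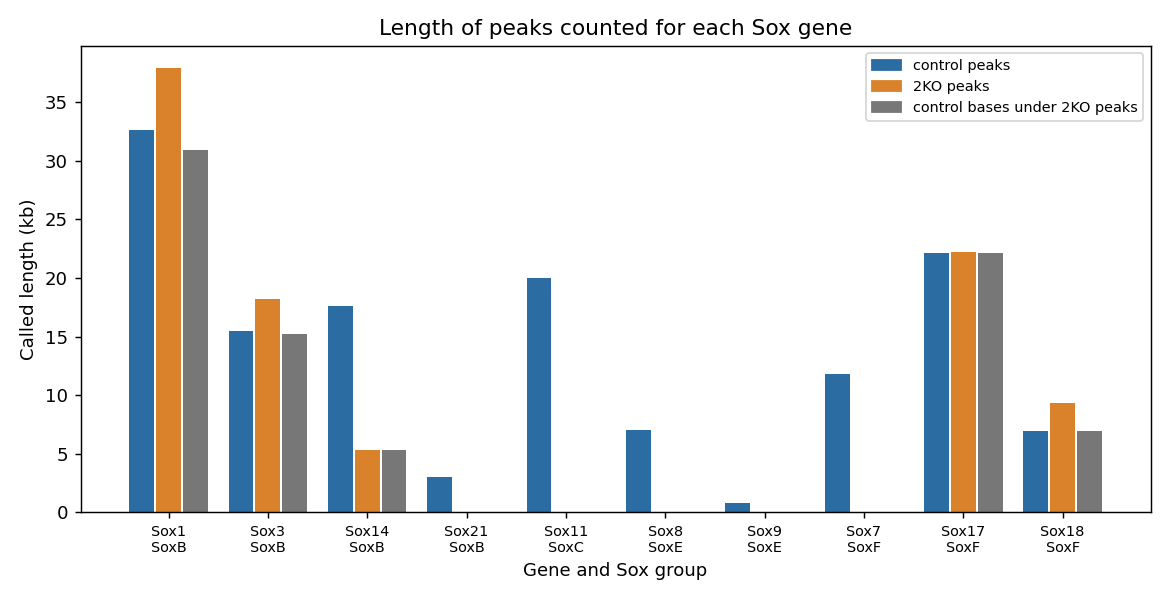
Called length in kb (vertical axis) of the peaks assigned to each of the 10 Sox genes (horizontal axis, ordered by group), with control peaks in blue, 2KO peaks in orange and control bases under 2KO peaks in grey. There is 1 list per genotype, so no error bar can be drawn. Sox17 shows bars of 22.1 and 22.2 kb, Sox1, Sox3 and Sox18 a longer 2KO than control bar, Sox14 a drop from 17.7 to 5.34 kb, and the other 5 genes a control bar alone.

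Summed over the listed genes of each group, SoxB genes had 68.7 kb of control and 61.5 kb of 2KO peaks. Of these control bases, 74.96% lay under 2KO peaks. For the SoxF genes these values were 40.8 kb, 31.5 kb and 71.2%. SoxE genes had 7.81 kb and the SoxC gene Sox11 19.96 kb of control peaks, with 0% under 2KO peaks in both groups. A 2KO peak was present at 3 of 4 listed SoxB, 2 of 3 SoxF, 0 of 2 SoxE and 0 of 1 SoxC genes. All of these genes had a control peak, and among all protein-coding genes with a control peak 59.8% had a 2KO peak. For the summed shares of control bases no value over all genes was computed. Outside the listed genes, Sox10 of the SoxE group had 98.7% of its control bases under 2KO peaks. Sox2 of the SoxB group had 26.9%. Groups of 1 to 4 genes measured once per genotype allow no test, and the values differed within the SoxB and SoxF groups over the whole range from 0% to 94.9% or more. Over all 10 genes the control peaks came to 137.3 kb and the 2KO peaks to 93.0 kb, and 58.7% of the control bases lay under 2KO peaks. The whole control list covered 24.84 Mb and the whole 2KO list 16.36 Mb, so a shorter 2KO length was not particular to these genes.

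Genes with a 2KO peak had longer control peaks at the median than genes without one (17.65 against 6.998 kb, 5 genes each), and the ranges overlapped. A 2KO peak was present at 4 of the 6 Sox genes with at least 10 kb of control peaks and at 1 of the 4 with less. Sox18 with 6.93 kb of control peak was wholly covered, whereas Sox8 with 6.998 kb was not covered at all. Sox11 with 19.96 kb and Sox7 with 11.8 kb had no 2KO peak, while Sox3 with 15.5 kb and Sox17 with 22.1 kb were covered to 98.5% or more. Among all 779 protein-coding genes with at least 10 kb of control peaks, 80.6% had a 2KO peak and the median share of covered bases was 67.9%. Of the 2440 genes with shorter control peaks, 53.2% had a 2KO peak.

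**Figure D4:**
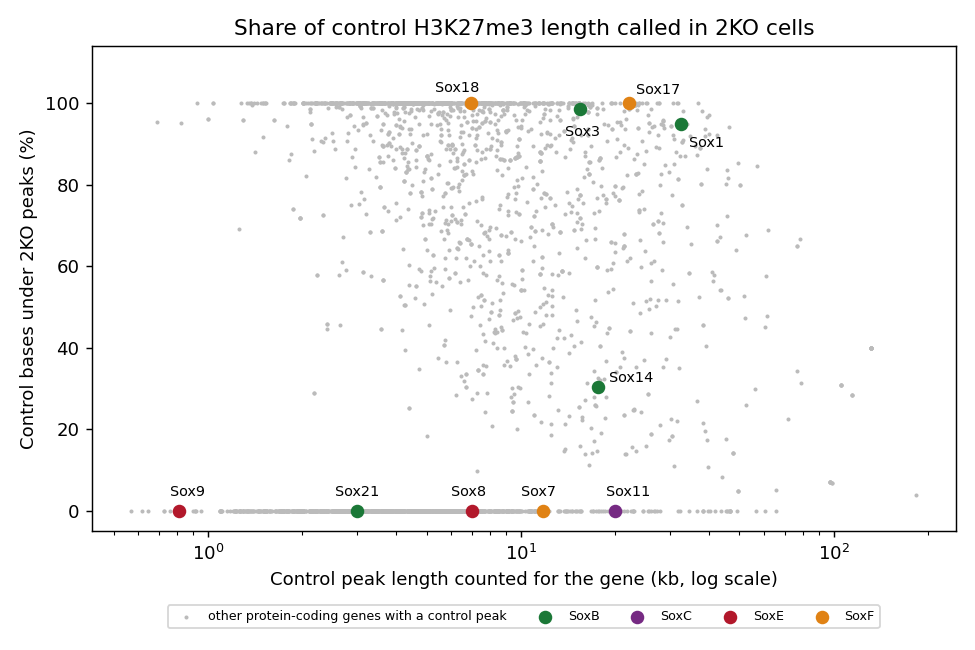
Share of control bases under 2KO peaks in percent (vertical axis) against the control peak length assigned to a gene in kb (horizontal axis, log scale). Grey points are the protein-coding genes with a control peak, and coloured points are the 10 Sox genes by group. Sox1, Sox3, Sox17 and Sox18 lie at 94.9% or more, Sox14 at 30.3%, and Sox7, Sox8, Sox9, Sox11 and Sox21 at 0%.

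The window of 10 kb brought in 4 peaks that did not touch a gene body. They were the control peaks of Sox9 (1.05 kb from the gene) and Sox21 (5.92 kb), the 2KO peak of Sox14 (3.20 kb) and the 16.1 kb 2KO peak of Sox1 (0.602 kb). Sox1 had another 2KO peak on its body, so the window changed the class of Sox9, Sox21 and Sox14. On gene bodies alone, 8 of 10 genes had a control peak and 4 of these (Sox1, Sox3, Sox17 and Sox18) a 2KO peak. The background on gene bodies was 11.2% with a control peak, 7.17% with a 2KO peak, 6.24% with both, 4.95% with a control peak only and 0.925% with a 2KO peak only, and 55.8% of genes with a control peak also had a 2KO peak.

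The rest of the Sox family was mostly free of called peaks. Of the 10 other Sox genes, Sox2, Sox10 and Sox13 had a control peak, and Sox2 and Sox10 a 2KO peak too. Sox4, Sox5, Sox6, Sox12, Sox15 and Sox30 had no peak of either list. Sry lies on the Y chromosome, where neither list has a peak, and is outside that background. At Sox2, the third gene of the SoxB1 subgroup and a factor of neural progenitors and Merkel cells, the 36.6 kb control domain was covered to 26.9%, by 2KO peaks that left a break of 11.4 kb around the whole gene. At Sox10, the third SoxE gene and a factor of melanocytes and glia, a control peak of 4.84 kb was covered to 98.7% by a 2KO peak of 8.00 kb, of which 40.3% lay outside control peaks. Sox13, a SoxD gene, had a control peak of 4.33 kb over its start and no 2KO peak within 940 kb.

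The protein-coding genes nearest to each Sox gene in called length were found by the Euclidean distance of log2(1 + kb) in control, 2KO and shared bases, over the 2 lists. Nearest to Sox17 was Ddn, with 22.1 kb in each list. Pax5 was nearest to Sox1, with 33.9 kb of control and 38.7 kb of 2KO peaks, and Fgf3 to Sox18, with 6.92 and 8.98 kb. Agap2 was nearest to Sox3, with 15.1 and 18.6 kb, and Hspa12a to Sox14, with 18.7 and 5.67 kb. For the 5 genes without a 2KO peak the likeness rests on control length alone.

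Peaks at fixed marker genes were read beside all protein-coding genes, of which 14.9% had a control peak and 11.2% a 2KO peak. With 3 to 9 genes per cell type, these counts cannot establish the identity of the sorted cells. Of 9 genes of basal epidermis (Krt5, Krt14, Krt15, Itga6, Itgb4, Col17a1, Trp63, Epcam and Ly6a), Krt15 had a control peak, of 3.61 kb and off the gene body, and none had a 2KO peak. Of 7 endothelial genes 2 (Kdr and Erg) had peaks in both lists, of 5 melanocyte genes 0 had a peak in either, and of 3 Merkel cell genes 2 (Atoh1 and Isl1) had peaks in both. Of 5 fibroblast genes 3 (Col1a1, Pdgfra and Twist1) had a control peak and 2 of these (Pdgfra and Twist1) also a 2KO peak. The 2KO peaks counted for Twist1 lay off the gene body. All 3 hair follicle genes (Shh, Lhx2 and Lgr5) had control peaks, and Shh and Lgr5 2KO peaks as well, while Lhx2 had 45.1 kb of control and 0 kb of 2KO peaks. Of 3 immune genes, Cd207 had a 2KO peak of 33.0 kb and no control peak. A share of other cell types in the sorted cells cannot be read from peak positions, and its part in the results was not tested.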

How the data were processed

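H3K27me3 was measured by chromatin immunoprecipitation and sequencing in sorted epidermal progenitors of newborn mice. The build is mm10 and the tools named are Bowtie2 2.3.3.1 and SAMtools 1.9, per the submitters' processing notes. Peak positions were deposited by the authors as 1 list of chromosome, start and end per genotype, without any height or p-value. How peaks were called, against which input, at which threshold and on single or pooled replicates is not given in the sources used here. Depth per library is unknown, so no interval or floor of detection is given, and a gene without a called peak may still carry the mark below the caller's threshold. Coordinates are printed 1-based, taking the deposited starts as 0-based.

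Gene positions came from a RefSeq table of GRCm38.p6, which has no strand or exons, and promoters from a RefSeq promoter table of the same build. Overlap of at least 1 bp with the gene body extended by 10 kb was required, and whole peaks were measured. Overlaps, covered lengths, edges and distances were computed with Python 3.11.15 and numpy 2.4.6, checked against a base-by-base count on simulated lists, and drawn with matplotlib 3.10.9. Named were the 10 genes, the other Sox genes, all genes under their peaks, fixed marker genes and the gene most alike each member. The members and lists were chosen with earlier results of these data known. Alternatives changed the window, the peak width and number, merging, and the overlap required.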

Additional observations from a re-analysis of the deposited data

How the results depend on the processing

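No paired analysis was possible because the 2 labelled replicates of a genotype are represented by a single list, which also leaves no replicate to omit. Of 237 values recomputed under 9 alternatives, 230 stayed within 1.5 times the value reported. These include values of 0 that stayed 0, such as the 2KO lengths of the SoxC and SoxE genes, which stricter settings cannot raise. The count of stable values is therefore no measure of robustness by itself. The count of genes with a control peak only, 5 as reported, was 3 with peaks of 5 kb or more and also 3 when the 2340 widest peaks of each list were compared, since the narrow peaks of Sox9 and Sox21 were then left out. On gene bodies only, the 2KO length of the SoxB genes was 40.0 kb in place of 61.5 kb, because the peaks beside Sox1 and Sox14 no longer counted, and the share of protein-coding genes with a 2KO peak was 7.17% in place of 11.2%. A window of 50 kb raised the shares of all protein-coding genes to 26.3% with a control peak, 21.3% with a 2KO peak and 17.0% with both. The share of control bases of the 10 genes under 2KO peaks, 58.7%, ranged from 56.6% to 61.7% over the alternatives. For the window alternatives this range says little, since every 2KO peak that met a counted control peak entered the share, whether or not it met the window. Sox7, Sox8 and Sox11 had a control peak and no 2KO peak, and Sox1, Sox3, Sox17 and Sox18 peaks of both lists, under all 9 alternatives. Depth and threshold of the lists limit every absence of a peak reported here.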
